A study of Rattus norvegicus with 22 samples.

Results

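The genes described here code for immune cell surface molecules, chemokines and interleukins, and were chosen by symbol alone. A probe set was taken when its single annotated symbol began with RT1- (the rat major histocompatibility complex, MHC), with Ccl, Ccr, Cxcl or Cxcr (chemokines and their receptors), with Il and a digit (interleukins, their receptors, antagonists and binding proteins) or with Cd and a digit (cluster of differentiation surface antigens), Cd36 excepted. The rule found 176 of the 15866 probe sets of a rat expression array, which measure 140 of the 10411 genes with a symbol. A gene with several probe sets is given by the one with the highest mean over all arrays. RNA came from 22 samples of Wistar rats, 1 array each. Pregnant dams had been dosed daily with vehicle (control), with the calcium sensitizer EMD 82571 at 50 mg/kg/day (EMD50) or 150 mg/kg/day (EMD150), a drug that the series' design text calls MSC1096199, or with retinoic acid, a form of vitamin A known to disturb embryonic development, at 12 mg/kg/day. The protocols give gestational days 6 to 11 and days 6 to 17 for dosing, and the design text days 6 to 17 only. The arrays fall into 5 strata of tissue and gestational day: whole embryo and maternal liver at day 12 (5 arrays each), and maternal liver, embryo liver and embryo bone at day 20 (4 arrays each). Every stratum had a single array for each of the 4 treatments, except that retinoic acid had 2 at day 12 in each tissue (codes RA5 and RA56, which the labels do not explain). Whether arrays share a dam or litter, and whether RNA was pooled, is not stated, so the p-values measure only the spread between these arrays, which may be technical. Retinoic acid was given at 1 dose and EMD 82571 at 2, and no sample was sorted by cell type.

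MHC class I molecules display peptides from inside nearly every nucleated cell to cytotoxic T cells, and class II molecules, which assemble on the invariant chain Cd74, display ingested peptides to helper T cells from macrophages, dendritic cells and B cells. Chemokines draw leukocytes through receptors on their surface, and interleukins carry signals between them. The fetal liver is the main blood-forming organ late in gestation, shortly before blood formation moves to the bone marrow, and the adult liver holds a large resident macrophage population, the Kupffer cells. Many molecules with a Cd name, such as the tetraspanins, are found on cells far outside the immune system.

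Values are log2 expression levels, in which 1 unit is a 2-fold difference, and differences are given in log2 units with limma's standard error (SE). A gene is called higher or lower at an adjusted p under 0.05 over all 15866 probe sets. Tissue labels were checked with summed marker lists. Hepatocyte genes averaged 12.54 to 12.67 in embryo liver and 13.69 to 13.96 in maternal liver, and at most 9.71 elsewhere. Bone and cartilage genes averaged 11.41 to 12.02 in embryo bone and at most 7.96 elsewhere, and red cell genes 11.37 to 11.54 in embryo liver and at most 10.82 elsewhere. Skeletal muscle genes averaged 10.77 to 11.47 over the embryo bone arrays. All bone samples thus held muscle RNA as well, and its part in the values called high in bone was not tested. Some arrays stood apart. Hepatocyte genes averaged 9.68 and 9.71 in the control and retinoic acid bone arrays against 8.01 and 8.38 in the EMD50 and EMD150 ones. Skeletal muscle genes averaged 10.22 in the retinoic acid maternal liver of day 20, where the other 3 livers of that day had 7.30 to 7.45. Pancreatic acinar genes averaged 10.91 and 10.18 in the control and EMD50 maternal livers of day 12 and 9.43 in the control maternal liver of day 20, against 7.59 to 7.91 in the other 6 maternal livers. The EMD50 bone array had a GAPDH 3' minus 5' probe difference of 2.72, and the other 21 arrays 0.57 to 0.86. Counts that moved without these arrays are given beside the results, and the part of the foreign tissue in single values was not tested.

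Most of the 140 genes were dim. The mean level of 98 of them (70.0%) lay below that of the median gene of the array (8.55), where 50.0% of all genes do by construction. Over the 22 arrays, 47 genes (33.6%, against 29.6% of all genes) moved by less than 1 log2 unit and 37 (26.4%, against 28.8%) by at least 2 log2 units. They had their highest mean in embryo liver in 51 cases (36.4%, against 21.1% of all genes) and in maternal liver of day 20 in 46 (32.9%, against 15.6%). Their lowest mean was in the day 12 whole embryo in 108 cases (77.1%, against 35.1%). Fewer cells of a type and less RNA per cell cannot be told apart in such whole-tissue samples. The heat map of the 37 genes with a range of at least 2 shows these levels array by array.

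**Figure D1:**
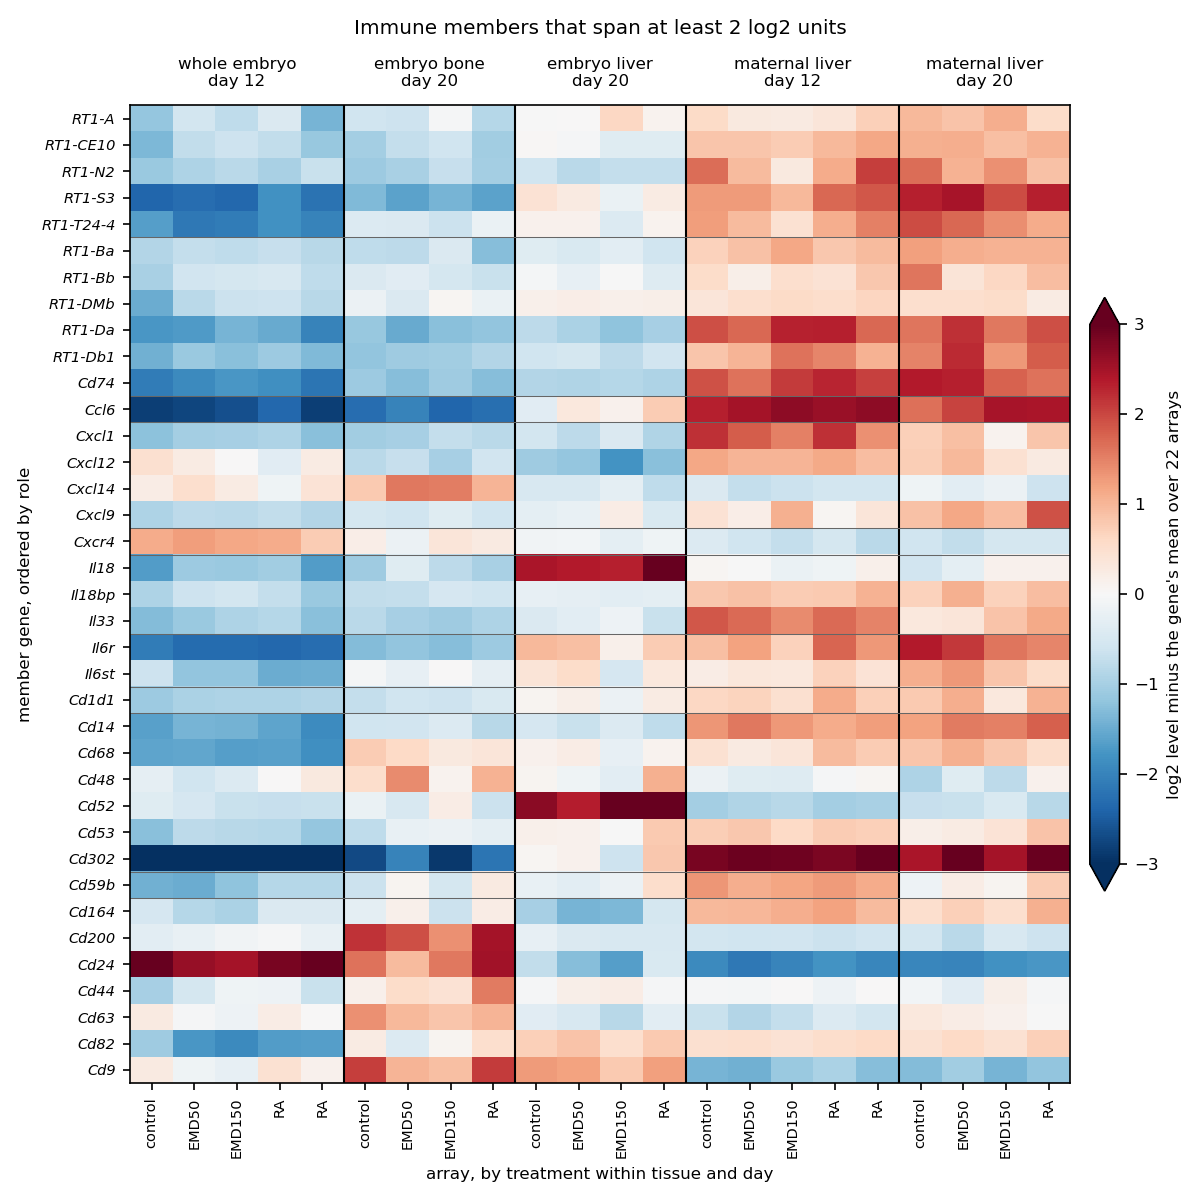
Levels of the 37 genes whose range over 22 arrays was at least 2 log2 units, each row minus the gene's own mean (colour scale from -3 to 3 log2 units), grouped by role, with the arrays in columns by tissue, day and treatment. RT1-Da, RT1-Db1 and Cd74 are high in the 9 maternal livers and low in all 13 arrays of embryonic tissue, while Il18 and Cd52 are high in the 4 embryo livers and Cd24 in the whole embryos and embryo bone.

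Between the strata, the largest number of calls separated embryo liver of day 20 from the whole embryo of day 12, in which tissue and day cannot be told apart. By limma, 106 of the 140 genes were higher in embryo liver and 9 lower, where 34.7% and 35.6% of all genes were. At least 2-fold differences numbered 18 higher and 4 lower, against 7.47% and 13.8% of all genes. Of the 98 dim genes 78 (79.6%) were higher, against 41.3% of all genes below the median level, and most of these differences were under 1 log2 unit (a median over the 98 of 0.41). The arrays also differed in spread, with SDs over all probe sets of 1.66 to 1.83 in whole embryo and 1.51 to 1.64 in embryo liver, and after quantile normalization, which removes that, 91 genes were higher and 8 lower. Embryo bone against the whole embryo gave 32 higher and 4 lower genes, where 15.4% and 22.2% of all genes were called. At least 2-fold differences there numbered 11 and 1, against 6.11% and 6.66% of all genes.

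At day 20, embryo liver had 14 genes higher and 44 lower than maternal liver (20.9% and 20.5% of all genes). Of these, 3 were higher and 20 lower by at least 2-fold (3.69% and 6.42% of all genes). The lower genes were mainly well-expressed ones, since 25 of the 42 genes at or above the median level (59.5%) were lower, against 29.3% of all genes at that level. Embryo bone had 13 genes higher and 56 lower than embryo liver (23% and 23.1% of all genes), with 6 in each direction by at least 2-fold (8.99% higher and 5.9% lower of all genes). The bone against embryo liver count depended on the arrays used. Leaving out the control and retinoic acid bones, which had more hepatocyte RNA, left 8 higher and 10 lower, and leaving out 4 arrays picked from earlier results of these data (EMD50 and retinoic acid bone, retinoic acid maternal liver of day 20 and the second retinoic acid whole embryo) left 32 called genes. Hepatocyte genes averaged 9.23 in that whole embryo and 9.22 in the first retinoic acid one, against 7.89 to 8.42 in the other whole embryos. Maternal liver changed little between the days: 3 genes were higher and 4 lower at day 20 (2.73% and 3.59% of all genes), and by at least 2-fold none was higher and 1 lower (0.298% of all genes in each direction). The plot of differences by role sets out both day 20 tissue comparisons.

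**Figure D2:**
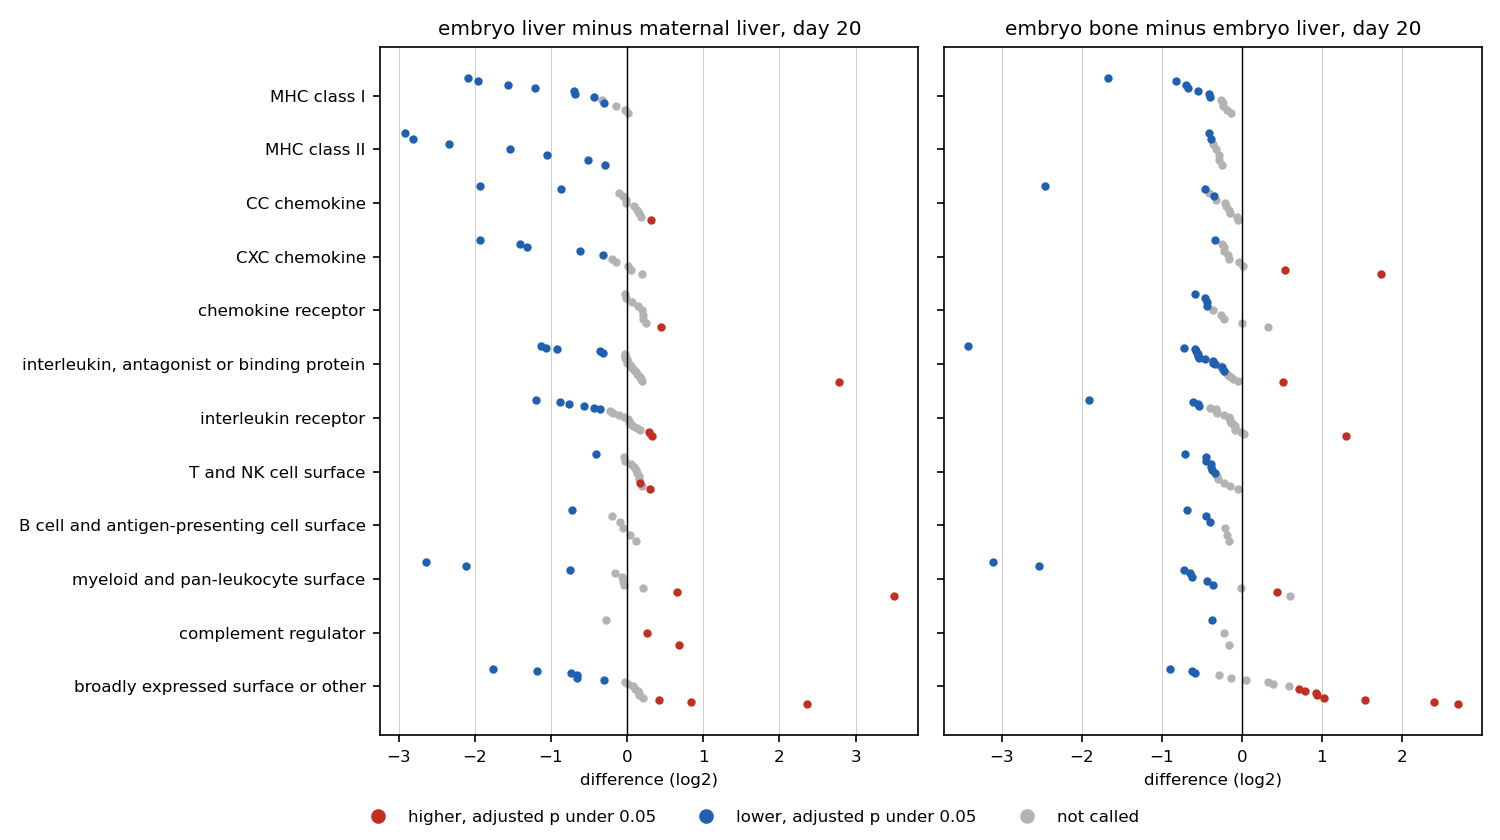
Differences of the 140 genes by role, embryo liver minus maternal liver at day 20 (left) and embryo bone minus embryo liver at day 20 (right), in log2 units, with 1 point per gene coloured red where called higher, blue where called lower and grey where not called (limma, adjusted p under 0.05). All 7 class II points are called lower in embryo liver than in maternal liver, and in the right panel Il18, Cd52, Cd302 and Ccl6 lie lowest and Cd24 and Cd200 highest.

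MHC class II transcripts marked the dam's liver. RT1-Da codes for the alpha chain of a class II molecule, and in maternal liver of day 12 it read 10.79, 10.56, 11.16, 11.19 and 10.58 (control, EMD50, EMD150 and both retinoic acid arrays). At day 20 it read 10.45, 11.05, 10.44 and 10.77 in maternal liver and 8.06, 7.90, 7.65 and 7.86 in embryo liver, in the order control, EMD50, EMD150 and retinoic acid. In embryo bone it read 7.72, 7.33, 7.59 and 7.67, and in whole embryo 7.10, 7.15, 7.47, 7.33 and 6.85. All 9 maternal livers were thus at 10.44 or above and all 13 embryonic arrays at 8.06 or below, with no overlap. The difference between embryo and maternal liver at day 20 was -2.81 ± 0.12 (7.01-fold; limma, adjusted p = 5.00e-07). Cd74, the invariant chain, read 10.72, 10.44, 10.90, 11.09 and 10.86 and 11.19, 11.15, 10.59 and 10.44 in the maternal livers of days 12 and 20. It read 7.94, 7.91, 7.95 and 7.88 in embryo liver, 7.73, 7.53, 7.74 and 7.54 in bone and 6.71, 6.91, 7.07, 6.97 and 6.63 in whole embryo. Here too no embryonic array reached a maternal one, and embryo liver minus maternal liver at day 20 was -2.92 ± 0.14 (7.57-fold; adjusted p = 7.56e-07).

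All 7 measured class II genes were lower in embryo liver than in maternal liver (20.5% of all genes). RT1-Db1, a beta chain, averaged 7.43 ± 0.12 (SD, n = 4) in embryo liver and 9.77 ± 0.41 in maternal liver of day 20, a difference of -2.34 ± 0.13 (adjusted p = 1.64e-06). RT1-Ba, an alpha chain, averaged 8.50 ± 0.13 and 10.03 ± 0.08, a difference of -1.53 ± 0.09 (adjusted p = 2.71e-06), and its beta partner RT1-Bb averaged 7.87 ± 0.17 and 8.93 ± 0.53, a difference of -1.06 ± 0.17 (adjusted p = 0.00136). RT1-DMa and RT1-DMb, the chains of the helper that loads peptides onto class II molecules, differed least, by -0.52 and -0.28 (adjusted p = 0.00744 and 0.0414). The second, dimmer probe set of RT1-Db1 was not called in this comparison. Within the embryo, class II levels were low but graded. All 7 genes were higher in embryo liver than in whole embryo (34.7% of all genes), from 0.33 for RT1-Ba to 1.05 for Cd74 and 1.07 for RT1-DMb. The second probe set of RT1-Ba was not called there (0.29). RT1-DMb and Cd74 were also higher in bone than in whole embryo (0.71 and 0.76). RT1-Db1 and RT1-Ba were the only class II genes called between bone and embryo liver (-0.41 and -0.39, where 23.1% of all genes were lower). The second probe set of each was not called in that comparison (-0.12 and -0.15). None of the 7 was called between the days in maternal liver (2.73% of all genes higher and 3.59% lower). The means of days 12 and 20 there were 10.85 and 10.68 for RT1-Da, 9.26 and 9.77 for RT1-Db1, and 8.91 and 8.92 for RT1-DMa.

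Class II promoters are known for a conserved group of boxes close to the start site, the X box and, downstream of it, the Y box, a CCAAT element read on the reverse strand. The sequences of the 130 bases before the annotated start are shown for the 5 class II chain genes found, since these genes were together lower in embryo liver than in maternal liver. They come from RefSeq on build GRCr8, 5′ to 3′ on the strand of the gene. RT1-Da lies at chr20:4515285-4515414 and RT1-Ba at chr20:4576927-4577056 on the plus strand, and RT1-Bb at chr20:4604119-4604248, RT1-Db1 at chr20:4560163-4560292 and RT1-DMa at chr20:4712336-4712465 on the minus strand. Capitals mark the letters GATTGG (those of the Y box, or CCAATC on the other strand) and AGCAAC (letters found in many X boxes).
RT1-Da: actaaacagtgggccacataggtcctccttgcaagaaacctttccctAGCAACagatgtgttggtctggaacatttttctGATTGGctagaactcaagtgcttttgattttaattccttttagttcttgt
RT1-Ba: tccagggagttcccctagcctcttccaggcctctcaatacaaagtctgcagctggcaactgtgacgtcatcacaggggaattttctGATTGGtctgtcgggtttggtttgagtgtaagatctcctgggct
RT1-Bb: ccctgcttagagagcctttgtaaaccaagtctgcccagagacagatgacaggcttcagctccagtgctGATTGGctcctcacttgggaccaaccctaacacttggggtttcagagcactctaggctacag
RT1-Db1: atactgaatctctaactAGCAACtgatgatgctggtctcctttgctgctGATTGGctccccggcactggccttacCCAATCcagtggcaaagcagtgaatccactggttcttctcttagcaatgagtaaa
RT1-DMa: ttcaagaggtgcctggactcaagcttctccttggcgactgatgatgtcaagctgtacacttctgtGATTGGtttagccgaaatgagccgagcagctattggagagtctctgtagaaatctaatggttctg

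All 5 hold GATTGG, with its first letter 50 bases before the start in RT1-Da, 44 in RT1-Ba, 62 in RT1-Bb, 81 in RT1-Db1 and 65 in RT1-DMa, and RT1-Db1 has it again on the other strand. AGCAAC lies 83 bases before the start in RT1-Da and 113 in RT1-Db1, in both cases upstream of GATTGG. RefSeq's promoter table held 109 of the 140 genes. In the 250 bases before the start, GATTGG occurred on either strand in 5 of 6 class II genes, in 7 of 11 class I genes and in 28 of the 109 (25.7%), against 13.3% of all 33469 promoters. AGCAAC occurred in 3 of 6 class II genes, the third being Cd74 at 71 bases, in 1 of 11 class I genes and in 12.1% of all promoters. A match describes the letters and does not show a bound site.

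MHC class I transcripts were graded in the same tissues. Their probe sets can hybridise to near-identical copies of this large gene family, so values for single class I genes are uncertain. RT1-S3 had the widest range, with 7.08, 7.16, 7.10, 7.62 and 7.23 in whole embryo and 8.13, 7.85, 8.04 and 7.84 in bone. It read 9.88, 9.72, 9.24 and 9.70 in embryo liver, 10.72, 10.73, 10.41, 11.18 and 11.31 in maternal liver of day 12 and 11.79, 11.93, 11.40 and 11.78 in maternal liver of day 20. By this probe set the 5 strata did not overlap. Between bone and whole embryo it differed by 0.75, while the other probe sets of RT1-S3 differed by 0.28, 0.22 and 0.30 and were not called. Embryo liver differed from maternal liver of day 20 by -2.09 ± 0.09 (adjusted p = 4.91e-07), bone from embryo liver by -1.67 ± 0.15 (adjusted p = 0.000131) and embryo liver from whole embryo by 2.43 ± 0.14 (adjusted p = 5.25e-07). RT1-T24-4 averaged 7.32 in whole embryo, 8.85 in bone, 9.26 in embryo liver and 10.32 and 10.82 in maternal liver of days 12 and 20. RT1-N2 was low in all embryonic tissues, with means of 6.94 in whole embryo, 6.89 in bone and 7.12 in embryo liver, against 9.05 ± 0.68 (SD, n = 5) and 9.07 ± 0.36 (SD, n = 4) in the maternal livers.

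Of the 12 class I genes, 8 were lower in embryo than in maternal liver and none higher (20.5% and 20.9% of all genes). In bone 7 were lower than in embryo liver and none higher (23.1% and 23% of all genes). In embryo liver 10 were higher than in whole embryo (34.7% of all genes). RT1-A, a classical class I gene, averaged 9.14 in whole embryo, 9.48 in bone, 10.18 in embryo liver, and 10.45 and 10.87 in maternal liver of days 12 and 20. RT1-CE10 ran through 7.47, 7.53, 8.20, 9.30 and 9.41 in the same order of strata, RT1-CE12 through 11.47, 11.51, 12.34, 12.58 and 12.66, and RT1-CE5 through 7.81, 8.15, 8.70, 8.79 and 9.0. None of these 3 was called between bone and whole embryo (0.05 ± 0.13, 0.02 ± 0.18 and 0.33 ± 0.16). RT1-T24-3 went from 8.11 in whole embryo to 9.07 in maternal liver of day 20, RT1-CE16 from 6.23 to 7.20 and RT1-A3 from 6.91 to 7.48. RT1-M3-1 and RT1-N3 varied least of the 12, with stratum means of 9.47 to 9.94 and 6.77 to 6.98.

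The genes that serve antigen presentation moved with them in part. Of 24 such genes listed 20 were measured. In embryo liver 14 of them were lower and 1 higher than in maternal liver of day 20 (20.5% and 20.9% of all genes). Among these, the immunoproteasome subunits Psmb9 and Psmb8 differed by -2.77 ± 0.13 and -2.50 ± 0.12, and B2m, the light chain of class I molecules, by -2.29 ± 0.15. Ciita, the class II transactivator, differed by -0.04 ± 0.09 (adjusted p = 0.774) and was not called. In bone 9 of the 20 were lower and 1 higher than in embryo liver (23.1% and 23% of all genes). In embryo liver 14 were higher and 2 lower than in whole embryo (34.7% and 35.6% of all genes). None was called between the days in maternal liver (2.73% of all genes higher and 3.59% lower).

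Among the CC chemokines, Ccl6 moved most. This chemokine is made by myeloid cells and macrophages, and it read 8.39, 9.04, 8.86 and 9.49 in embryo liver (control, EMD50, EMD150 and retinoic acid). It read 6.44, 6.71, 6.35 and 6.47 in bone, 5.89, 5.98, 6.09, 6.37 and 5.89 in whole embryo, 11.05, 11.21, 11.41, 11.31 and 11.41 in maternal liver of day 12 and 10.37, 10.74, 11.20 and 11.17 in that of day 20. The retinoic acid array was the highest of the embryo livers, and embryo liver lay between the maternal livers above it and bone and whole embryo below it without overlap. Embryo liver differed from maternal liver by -1.93 ± 0.12 (adjusted p = 4.59e-06), bone from embryo liver by -2.46 ± 0.17 (adjusted p = 5.05e-05) and embryo liver from whole embryo by 2.96 ± 0.16 (adjusted p = 2.89e-07). Ccl5, a chemokine for T cells, was lower in embryo than in maternal liver (-0.87 ± 0.09, adjusted p = 0.000119), and Ccl22 was higher (0.31 ± 0.10, adjusted p = 0.0416). The other CC chemokines were dim, except Ccl20, whose mean of 8.63 lay just above the median gene. Ccl2, which draws monocytes, ranged from 6.27 to 7.14 and Ccl3 from 6.92 to 7.81 over all 22 arrays. Of the 11, 6 moved by less than 1 log2 unit.

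The CXC chemokines differed in direction between genes. Cxcl12 holds blood stem cells and other Cxcr4-bearing cells near the stroma that makes it. It averaged 10.95 ± 0.32 (SD, n = 5) in whole embryo, 10.05 ± 0.17 in bone, 9.51 ± 0.32 in embryo liver, 11.87 ± 0.10 in maternal liver of day 12 and 11.43 ± 0.31 in that of day 20. By this probe set embryo liver had the least, at -1.93 ± 0.12 against maternal liver (adjusted p = 4.70e-06) and -1.47 ± 0.15 against whole embryo (adjusted p = 1.99e-05). Bone was 0.54 ± 0.13 above embryo liver (adjusted p = 0.0141), a call lost without the EMD150 embryo liver (adjusted p = 0.0508) or the retinoic acid array of either tissue (0.0605 and 0.0595). A second probe set of Cxcl12 was called the other way between bone and whole embryo (1.29, against -0.92), and between embryo liver and whole embryo it differed by -0.09 with no call (adjusted p = 0.567). Its receptor Cxcr4 ranged from 9.60 to 10.09 over the 5 whole embryos (lowest in the second retinoic acid array), and read 9.04, 8.68, 9.22 and 9.12 in bone and 8.73, 8.76, 8.55 and 8.72 in embryo liver. All whole embryos were above all other arrays, and the maternal livers ranged from 8.05 to 8.43. Cxcr4 was lower in embryo liver (-1.25 ± 0.12, adjusted p = 1.64e-05) and in bone (-0.92 ± 0.17, adjusted p = 0.00232) than in whole embryo.

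Cxcl14, a chemokine of epithelia and connective tissue, was highest in bone, at 9.01, 9.81, 9.77 and 9.26, with 7.74, 7.74, 7.94 and 7.46 in embryo liver. Bone was 1.74 ± 0.15 above embryo liver (adjusted p = 0.000125) and 0.95 ± 0.17 above whole embryo (adjusted p = 0.00244). Cxcl9 and Cxcl10, which interferon gamma raises, were lower in embryo than in maternal liver, by -1.41 ± 0.22 (adjusted p = 0.00105) and -0.62 ± 0.13 (adjusted p = 0.00641). Cxcl1, a neutrophil chemokine, was also lower there (-1.31 ± 0.18, adjusted p = 0.00051). Of the 9 receptors, Cxcr4 alone was called between embryo and maternal liver (0.44 ± 0.10, adjusted p = 0.00691). Of all genes 20.9% were higher and 20.5% lower in that comparison. Cxcr1, Ccr4, Ccr2 and Cxcr5 were lower in bone than in embryo liver, by -0.59 to -0.43 (23.1% of all genes). Of 38 listed partners of these pathways 30 were measured. In embryo liver 4 were higher and 9 lower than in maternal liver (20.9% and 20.5% of all genes). Among them were Pf4, the platelet chemokine, at 3.30 ± 0.12, and Lifr, a receptor of the interleukin 6 family, at -2.87 ± 0.14. In bone 1 was higher than in embryo liver, Ackr3, the scavenging receptor of Cxcl12 (1.57 ± 0.14), and 10 were lower, Pf4 by -2.53 ± 0.17. Of all genes 23% were higher and 23.1% lower in bone than in embryo liver.

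Il18 was the interleukin that set embryo liver apart. It codes for a cytokine of macrophages and epithelia, and it read 10.38, 10.31, 10.26 and 11.27 in embryo liver and 7.35, 7.64, 8.05 and 8.06 in maternal liver of day 20. It read 7.99, 7.93, 7.73, 7.80 and 8.10 in maternal liver of day 12, 6.86, 7.58, 7.15 and 6.96 in bone and 6.26, 6.85, 6.82, 6.90 and 6.26 in whole embryo. Every embryo liver was thus at 10.26 or above and every other array at 8.10 or below, and the retinoic acid embryo liver was the highest. The difference was 2.78 ± 0.15 against maternal liver (6.86-fold; adjusted p = 2.02e-06), 3.98 ± 0.22 against whole embryo (adjusted p = 3.84e-07), and -3.42 ± 0.24 in bone against embryo liver (adjusted p = 5.14e-05). Il18bp, which neutralises the Il18 protein, went the other way between the livers, with 8.57, 8.54, 8.49 and 8.53 in embryo liver and 9.51, 9.88, 9.51 and 9.74 in maternal liver of day 20 (-1.13 ± 0.10, adjusted p = 3.07e-05). Il33, an alarm signal held in the nucleus, was also lower in embryo than in maternal liver (-1.06 ± 0.17, adjusted p = 0.00122), as was Il17b (-0.92 ± 0.16, adjusted p = 0.00212). Of the 23 interleukins, antagonists and binding proteins, 12 moved by less than 1 log2 unit over all arrays. Il1b averaged 6.75 in whole embryo, 6.76 in bone, 7.32 in embryo liver and 7.55 and 7.64 in the maternal livers of days 12 and 20. Il6 ranged only from 5.63 to 6.38 over the 22 arrays. In bone, 14 of the 23 were lower than in embryo liver and 1, Il17b, was higher (0.52). Of all genes 23.1% were lower and 23% higher there. Apart from Il18 none of the 14 lower values exceeded 1 log2 unit, the next being Il1rn, the interleukin 1 receptor antagonist (-0.72).

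The receptor for interleukin 6 followed the liver. Il6r, its binding chain, read 9.53, 9.45, 8.70 and 9.31 in embryo liver and 10.92, 10.67, 10.17 and 10.02 in maternal liver of day 20. It read 9.46, 9.76, 9.25, 10.29 and 9.84 in maternal liver of day 12, 7.24, 7.37, 7.27 and 7.47 in bone and 6.46, 6.24, 6.24, 6.20 and 6.25 in whole embryo. Bone was -1.91 ± 0.16 against embryo liver (adjusted p = 9.74e-05), and embryo liver -1.20 ± 0.13 against maternal liver (adjusted p = 0.000114) and 2.96 ± 0.13 against whole embryo (adjusted p = 9.41e-08). Il6st, the shared signalling chain gp130, averaged 9.11 in whole embryo, 10.16 in bone, 10.48 in embryo liver and 10.69 and 11.24 in the maternal livers. It was called lower in embryo than in maternal liver (-0.76 ± 0.15, adjusted p = 0.00429). Il11ra1, the receptor chain for interleukin 11, was highest in bone, 1.30 ± 0.17 above embryo liver (adjusted p = 0.000888) and 1.06 ± 0.18 above whole embryo (adjusted p = 0.0017). Il1r1, the interleukin 1 receptor, was lower in bone than in embryo liver (-0.55 ± 0.10, adjusted p = 0.00375) and lower in embryo than in maternal liver (-0.43 ± 0.10, adjusted p = 0.0109). Of the 20 receptor genes, 6 were lower and 2 higher in embryo than in maternal liver (20.5% and 20.9% of all genes). In bone 4 were lower and 1 higher than in embryo liver (23.1% and 23% of all genes).

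T and NK cell surface genes were close to flat. Of 12, 7 moved by less than 1 log2 unit over all 22 arrays and none by 2. Cd3e, a chain of the T cell receptor complex, averaged from 5.33 in whole embryo to 5.45 in maternal liver of day 12. Cd4 was lower in embryo than in maternal liver (-0.40 ± 0.09, adjusted p = 0.00691), and Cd28 was higher (0.30 ± 0.09, adjusted p = 0.029). In bone 7 of the 12 were lower than in embryo liver (23.1% of all genes), from -0.71 for Cd8b to -0.33 for Cd40lg. Cd79b, a chain of the B cell receptor, read 6.84 to 6.98 in embryo liver, 6.39 to 6.52 in bone and 6.68 to 6.95 in maternal liver. It was lower in bone than in embryo liver (-0.45 ± 0.07, adjusted p = 0.00277). Cd1d1, which presents lipids to NKT cells, was lower in embryo than in maternal liver (-0.73 ± 0.10, adjusted p = 0.000501) and lower again in bone (-0.69 ± 0.11, adjusted p = 0.00288). The array set lymphocytes poorly apart, since of the other lymphocyte markers listed 1 of 11 for B cells and 4 of 9 for T cells were measured.

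Among the myeloid and pan-leukocyte genes, Cd52 and Cd14 went in opposite directions between the livers. Cd52, a small glycoprotein of lymphocytes and myeloid cells, read 9.75, 9.40, 10.34 and 10.02 in embryo liver and 6.83, 6.56, 7.27 and 6.39 in bone. It read 6.01 to 6.21 in maternal liver of day 12, 6.20 to 6.58 in that of day 20 and 6.33 to 6.68 in whole embryo. The 4 embryo livers were above all 18 other arrays, with differences of 3.50 ± 0.13 from maternal liver (adjusted p = 2.35e-07) and -3.11 ± 0.15 in bone against embryo liver (adjusted p = 1.23e-05). Cd14, the lipopolysaccharide co-receptor of macrophages, read 8.52, 8.35, 8.62 and 8.26 in embryo liver and 10.24, 10.59, 10.55 and 10.82 in maternal liver of day 20. The groups did not overlap, and the difference was -2.11 ± 0.14 (adjusted p = 4.79e-06). Cd302, a lectin receptor of macrophages and hepatocytes, fell in steps from maternal liver (11.09 at day 20) through embryo liver (8.44) to bone (5.90) and whole embryo (5.12), with -2.64 ± 0.16 between the livers (adjusted p = 2.79e-06) and -2.54 ± 0.16 in bone against embryo liver (adjusted p = 2.84e-05). Cd68, a lysosomal protein of macrophages and osteoclasts, was called higher in bone than in embryo liver (0.44 ± 0.12, adjusted p = 0.0208) and than in whole embryo (2.13 ± 0.14, adjusted p = 5.50e-06). Cd48, an adhesion molecule of leukocytes, was higher in embryo than in maternal liver (0.66 ± 0.14, adjusted p = 0.00534).

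Marker lists of other cells moved with these genes only in part, and their part in the values was not tested. Over their measured members, neutrophil granule genes (5 of 12 listed) averaged 8.35 to 9.29 in embryo liver, 6.77 to 6.99 in bone and 6.91 to 7.22 in maternal liver. Macrophage genes (8 of 13) averaged 9.85 to 10.15 in embryo liver, 8.93 to 9.35 in bone, 10.07 to 10.47 in maternal liver and 7.57 to 8.07 in whole embryo. Pan-leukocyte genes (7 of 10) averaged 8.35 to 8.61 in embryo liver, 7.73 to 8.04 in bone, 7.98 to 8.17 in maternal liver and 7.16 to 7.35 in whole embryo. Osteoclast genes (4 of 8) averaged 9.73 to 10.75 in bone and at most 8.13 elsewhere.

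**Figure D3:**
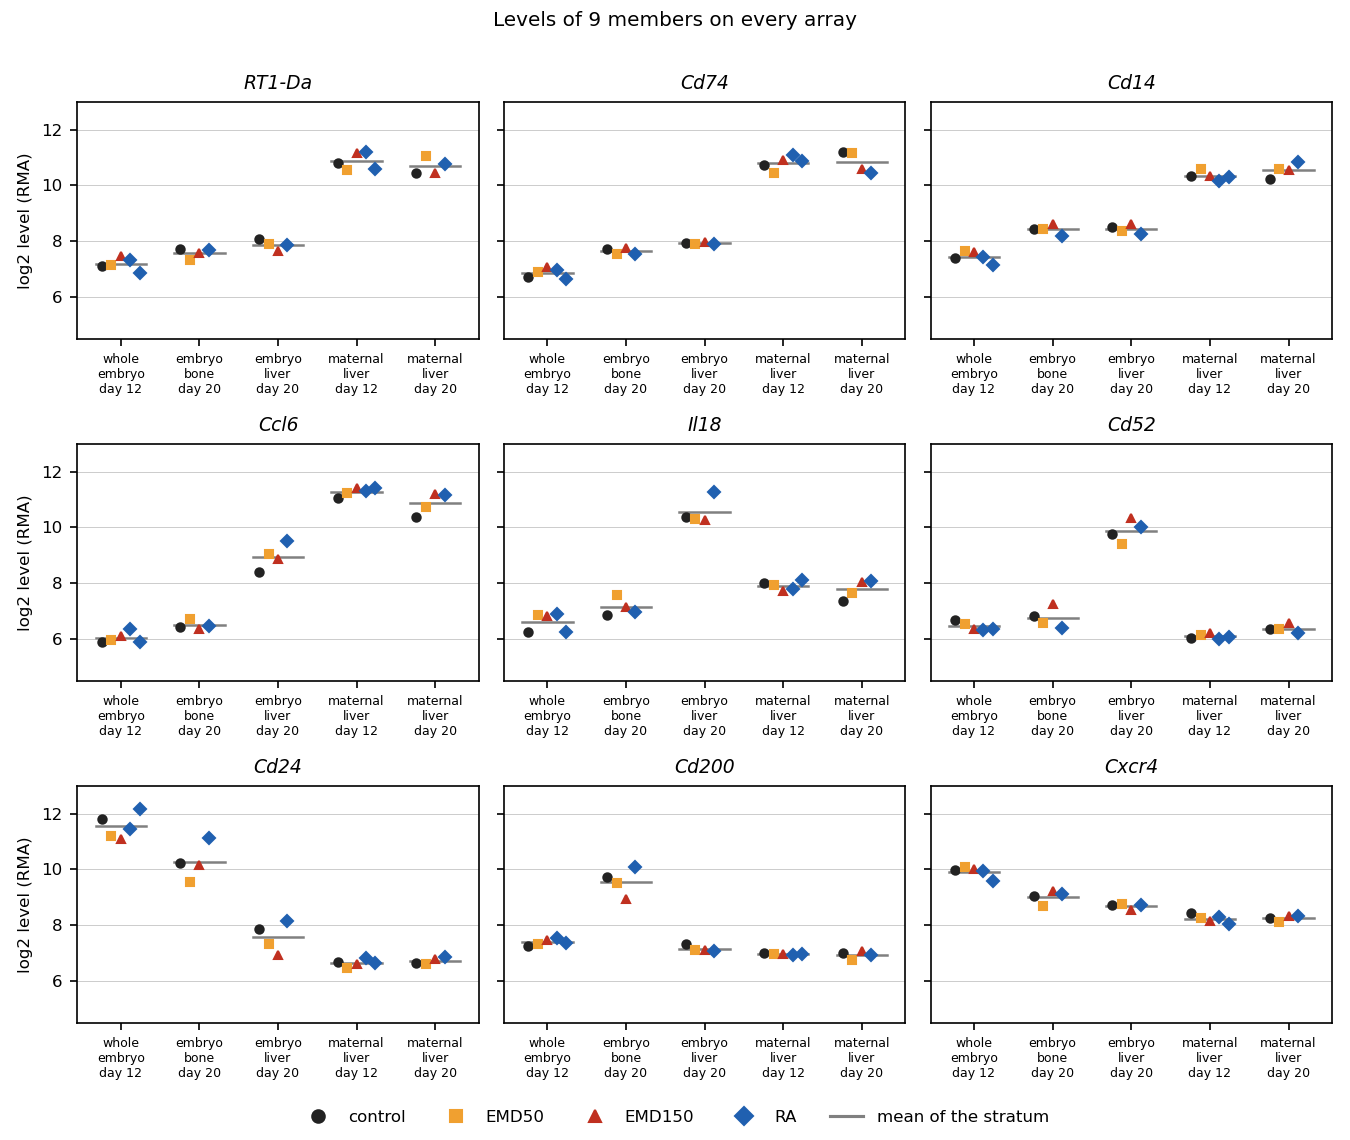
Log2 level on each of the 22 arrays for RT1-Da, Cd74, Cd14, Ccl6, Il18, Cd52, Cd24, Cd200 and Cxcr4, by tissue and day, with 1 point per array marked by treatment and a line at the mean of each stratum. Maternal livers stand highest for RT1-Da and Cd74, embryo livers for Il18 and Cd52, whole embryos for Cd24 and Cxcr4, and bone for Cd200.

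The genes higher in bone than in embryo liver were mostly broadly expressed surface molecules, 8 of 17 against 3 lower. Of all genes 23% were higher and 23.1% lower in that comparison. Cd24, a mucin-like adhesion molecule of developing epithelia, neurons and blood precursors, read 11.82, 11.20, 11.10, 11.44 and 12.15 in whole embryo, 10.22, 9.53, 10.17 and 11.12 in bone and 7.86, 7.33, 6.94 and 8.14 in embryo liver. The maternal livers ranged from 6.45 to 6.85. Bone was 2.69 ± 0.19 above embryo liver (adjusted p = 4.88e-05), and embryo liver differed from whole embryo by -3.89 ± 0.16 (14.8-fold; adjusted p = 5.56e-08). Cd200, a ligand that restrains myeloid cells, read 9.73, 9.50, 8.93 and 10.07 in bone, 7.08 to 7.31 in embryo liver and 7.25 to 7.54 in whole embryo. Bone was 2.40 ± 0.18 above embryo liver (adjusted p = 7.07e-05). A second probe set of Cd200 was called lower in the same comparison (-0.38). The tetraspanins Cd63 and Cd81 were higher in bone than in embryo liver (1.54 ± 0.12, adjusted p = 7.62e-05, and 1.02 ± 0.13, adjusted p = 0.000701). The tetraspanin Cd9 was higher in embryo than in maternal liver (2.36 ± 0.10, adjusted p = 3.44e-07), and its highest mean was in bone. Cd82 was higher in embryo liver (2.33) and in bone (1.73) than in whole embryo. Cd44, the receptor of hyaluronan, read 8.72, 9.12, 9.0 and 10.12 in bone, highest with retinoic acid, and was 1.24 ± 0.23 above whole embryo (adjusted p = 0.00248). Cd248, a stromal and pericyte antigen, is uncertain here, since its brighter probe set differed by -0.58 between bone and embryo liver and its other one by 2.28, both called.

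Without the control and retinoic acid bones, the 18 genes called between bone and embryo liver were all among the 69. Il18 was then at -2.92 (adjusted p = 0.000217), Cd52 at -2.95 (adjusted p = 0.000151) and Ccl6 at -2.42 (adjusted p = 0.000259), and Cd24 was at 2.72 (adjusted p = 0.000557) and Cd200 at 2.11 (adjusted p = 0.000616). Cxcl12, Il17b, Il1rn, Cd8b and RT1-A were among those lost. In a fit with array weights the comparison called 106 genes and with dim genes filtered out 34, of which 35.3% were higher.

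Between day 12 and day 20 of pregnancy the maternal liver changed in 7 of the 140 genes (2.73% of all genes higher, 3.59% lower). Cxcl1 read 9.87, 9.50, 9.20, 9.87 and 9.06 at day 12 and 8.40, 8.59, 7.80 and 8.53 at day 20, with no overlap, and differed by -1.16 ± 0.17 (adjusted p = 0.00989). Il33 read 10.79, 10.63, 10.35, 10.64 and 10.43 at day 12 and 9.24, 9.30, 9.79 and 10.06 at day 20, again with no overlap (-0.94 ± 0.18, adjusted p = 0.0225). The second, dimmer probe set of Il33 differed by -1.11 and was not called (adjusted p = 0.114). Cd59b, which shields cells from complement, read 9.99, 9.75, 9.87, 9.95 and 9.78 at day 12 and 8.52, 8.90, 8.74 and 9.43 at day 20 (-0.93 ± 0.15, adjusted p = 0.0145). These 3 genes were lower at the later day on every array. Il15, a growth factor of NK cells, was the fourth lower gene (-0.41 ± 0.07, adjusted p = 0.0196). RT1-S3 was higher at day 20 (0.92 ± 0.12, adjusted p = 0.00622), as were Cd63 (0.82 ± 0.12, adjusted p = 0.00874) and Cd52 (0.26 ± 0.05, adjusted p = 0.0215). Without the 3 maternal livers with pancreatic acinar genes none of the 7 passed, with RT1-S3 at 0.73 (adjusted p = 0.0834) and Cxcl1 at -1.14 (adjusted p = 0.108), and 18 of the 140 had an unadjusted p under 0.05. Without the control array of either day 1 gene, RT1-S3, was called, and without the retinoic acid liver of day 20, which held muscle genes, 20 were. Il33, Il15 and Cd52 lost the call without the EMD50 array of either day, and Cd59b and Cd52 without the EMD150 array of either day.

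**Figure D4:**
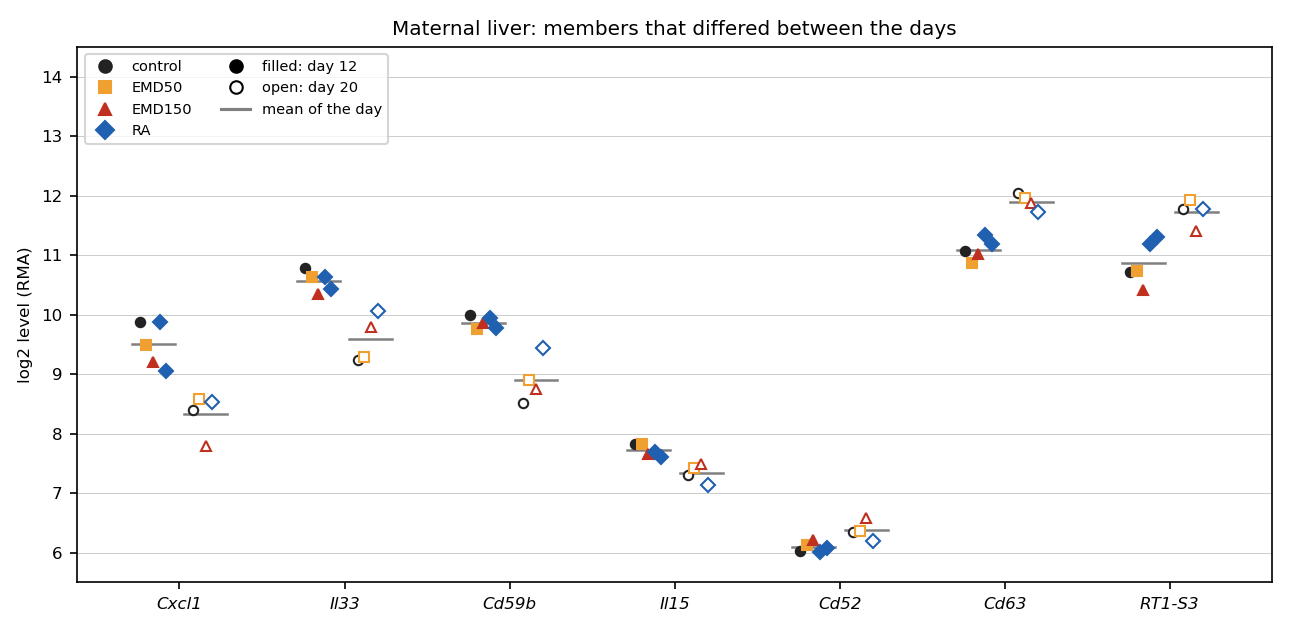
Log2 levels of the 7 genes called between the days in maternal liver, with filled points for the 5 arrays of day 12 and open points for the 4 arrays of day 20. Cxcl1, Il33 and Cd59b lie lower at day 20 without overlap, and RT1-S3 and Cd63 lie higher.

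The GGAATTTCC letters of a kappa-B-like site, a type of element through which NF-kappa-B acts, are shown for Cxcl1, the gene with the widest change between the days. Its 130 bases before the start lie at chr14:17479322-17479451 on the minus strand of GRCr8 (RefSeq), with those letters in capitals.
Cxcl1: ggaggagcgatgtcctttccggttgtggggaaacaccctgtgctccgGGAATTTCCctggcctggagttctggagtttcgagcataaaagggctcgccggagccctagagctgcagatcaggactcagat

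The first capital lies 83 bases before the start. The same letters occurred on either strand in the 250 bases before the start of 3 of 9 CXC chemokine genes (Cxcl1, Cxcl6 at 87 bases and Cxcl10 at 186 bases), in 4 of the 109 genes found and in 0.287% of all 33469 promoters. Of these, Cxcl6 and Cxcl10 were not called in maternal liver between the days: Cxcl6 differed by 0.01 ± 0.05 (adjusted p = 0.957) and Cxcl10 by 0.24 ± 0.12 (adjusted p = 0.292).

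EMD 82571 moved none of the 140 genes past the threshold. These treatment comparisons drew on all 22 arrays, with a term for the stratum, share their control arrays, and treat the 5 strata as the repeats. For EMD150 against control limma called 0 of the 140 (0% of all genes), while 35 had an unadjusted p under 0.05, 100 differences were above 0 and the smallest adjusted p was 0.195. Unadjusted counts like these are given without the share of all genes throughout. They are not read as a result about the 140. Below the median level the median difference was 0.10 over these genes and 0.05 over all genes, and at or above it 0.02 and -0.10. The SD over all probe sets was 1.51 to 1.67 on the EMD150 arrays and 1.58 to 1.83 on the control arrays. RT1-T24-4 was lower with EMD150 in all 5 strata, at -0.52 ± 0.14 (adjusted p = 0.195). Its single-array differences were -0.43 in whole embryo, -0.24 in bone, -0.55 in embryo liver and -0.80 and -0.56 in maternal liver of days 12 and 20. Cd63 differed by -0.34 ± 0.10 (adjusted p = 0.195) and Il2 by 0.21 ± 0.06 (adjusted p = 0.195). For EMD50, 0 were called (0% of all genes) and 3 had an unadjusted p under 0.05. With both doses averaged, 0 were called in maternal liver (0% of all genes; 4 with an unadjusted p under 0.05) and 0 in the conceptus (the 3 embryonic strata together; 0% of all genes, 18 with an unadjusted p under 0.05). The difference between these effects called 0 as well (0% of all genes; 5 with an unadjusted p under 0.05).

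Within a stratum a treatment has 1 array, or a pair for retinoic acid at day 12, so differences there carry no test. At least 2-fold differences from the control of the same stratum were few, 0 to 2 of the 140 per stratum and treatment (0% to 1.43%, against 0.0768% to 3.36% of all genes). Cd9 in bone read 11.33, 10.29, 10.16 and 11.38 (control, EMD50, EMD150 and retinoic acid), so that the EMD50 and EMD150 arrays differed from control by -1.04 and -1.17. RT1-N2 in maternal liver of day 12 read 9.50, 8.78, 8.12, 8.93 and 9.90, lowest with EMD150. RT1-Bb in maternal liver of day 20 read 9.65, 8.43, 8.66 and 8.98, highest in the control. Its second probe set was lowest in the control (6.47) and highest with EMD50 (9.59), so the RT1-Bb value is uncertain.

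Retinoic acid against control called 1 of the 140 genes, Cd59b, where 1.82% of all genes were called, and 11 had an unadjusted p under 0.05. Cd59b read 7.22, 7.18, 7.46, 7.83 and 7.81 in whole embryo, 8.03, 8.75, 8.14 and 8.94 in bone and 8.44, 8.36, 8.49 and 9.20 in embryo liver. With retinoic acid it was higher than the control by 0.60, 0.91 and 0.76 there and by 0.92 in maternal liver of day 20, and it differed by -0.13 in maternal liver of day 12. The fitted difference was 0.56 ± 0.13 (adjusted p = 0.037), higher in 4 of 5 strata. In the conceptus alone it was 0.74 ± 0.18 (adjusted p = 0.0426), the one call there (1.76% of all genes called; 8 of the 140 with an unadjusted p under 0.05). In maternal liver none of the 140 was called (0.115% of all genes; 2 with an unadjusted p under 0.05). The call is fragile: over 35 alternatives Cd59b stayed between 0.40 and 0.78 and was called in 17, and it was lost without the 4 arrays picked above, without the control and retinoic acid bones and without the 3 livers with acinar genes. With 1 array left out it was lost without any control array but that of day 12 maternal liver, and without any retinoic acid array but the day 12 maternal liver pair (adjusted p from 0.0508 to 0.163). In the conceptus the call was lost without the control or retinoic acid array of bone or embryo liver, the control, EMD50 or second retinoic acid whole embryo, the EMD150 embryo liver, either EMD maternal liver of either day, or the first retinoic acid maternal liver of day 12. A probe set of Cd47 that is not the gene's brightest was called higher with retinoic acid (0.74, adjusted p = 0.0253), while the brightest one differed by 0.04 (adjusted p = 0.936).

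Among single strata, retinoic acid gave at least 2-fold differences in 4 cases, which is 0.714% of the members in bone, 0.714% in embryo liver and 1.43% in maternal liver of day 20, against 2.64%, 0.999% and 1.78% of all genes. Cd44 was 1.41 above control in bone, and Ccl6 was 1.10 above control in embryo liver. Cxcl9 and Cd48 were 1.03 and 1.06 above control in maternal liver of day 20, on the array that also held muscle genes.

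The direct comparison of EMD150 with retinoic acid called 24 of the 140 genes. With EMD150 16 were higher and 8 lower, where 5.44% and 8.23% of all genes were. Cd48 had the largest difference, -0.80 ± 0.17 (adjusted p = 0.0104), and was lower with EMD150 in all 5 strata. It read 8.72, 8.38, 8.58, 9.0 and 9.27 in whole embryo, 9.50, 10.41, 9.09 and 10.02 in bone and 9.07, 8.85, 8.67 and 10.05 in embryo liver. In maternal liver it read 8.82, 8.61, 8.59, 8.95 and 9.05 at day 12 and 8.06, 8.63, 8.20 and 9.12 at day 20. The other lower genes were Cd24 (-0.56 ± 0.17), Cd164, a sialomucin of blood precursors (-0.51 ± 0.13), Cd302 (-0.48 ± 0.15), Cd9 (-0.48 ± 0.16), Cd59b (-0.46 ± 0.13), RT1-S3 (-0.41 ± 0.12) and Cd1d1 (-0.34 ± 0.10), with adjusted p from 0.0104 to 0.0477. The other probe sets of RT1-S3 differed by -0.40, -0.05 and -0.32 and were not called. Of the 16 higher genes 15 lay below the median level, and all differences were small, from 0.20 to 0.35. Among them were the interleukins Il13 (0.35 ± 0.08), Il6 (0.29 ± 0.06) and Il10 (0.20 ± 0.05), the T cell gene Cd8a (0.27 ± 0.07) and the chemokine Ccl2 (0.25 ± 0.08).

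Level and direction went together in this comparison. Of the 98 genes below the median level 15 were higher and 2 lower with EMD150 (15.3% and 2.04%, against 9.03% and 4.27% of all genes below it). Of the 42 at or above it 1 was higher and 6 lower (2.38% and 14.3%, against 1.84% and 12.2%). The SD over all probe sets was 1.51 to 1.67 on the EMD150 arrays and 1.64 to 1.80 on the retinoic acid arrays, and after quantile normalization 12 were higher and 3 lower. With dim genes filtered out 2 were higher and 8 lower. The comparison called none of the 140 without the 4 arrays picked from earlier results (28 with an unadjusted p under 0.05), none without the embryo liver stratum (43 with an unadjusted p under 0.05), 4 without the retinoic acid embryo liver and 42 without the first of the retinoic acid whole embryos. The count was 6 without the EMD150 array of bone or of embryo liver, 9 without the retinoic acid bone and 12 without the second retinoic acid whole embryo. It was 13 and 14 without the EMD150 and retinoic acid maternal livers of day 20, and 15 without the first retinoic acid maternal liver of day 12.

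**Figure D5:**
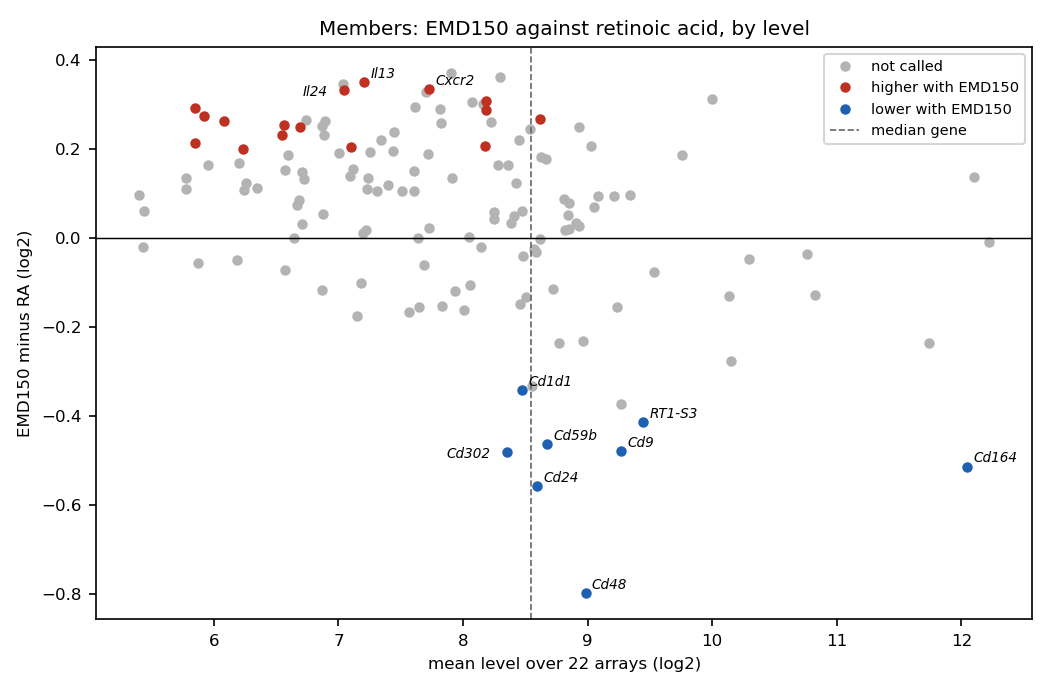
EMD150 minus retinoic acid difference in log2 units (vertical axis) against mean log2 level over 22 arrays (horizontal axis) for the 140 genes, red where called higher and blue where called lower with EMD150, with a dashed line at the level of the median gene of the array. Of the 16 genes called higher 15 lie left of the line, and of the 8 called lower 6 lie right of it, Cd48 among the lower ones.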

How the data were processed

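RNA of 22 samples was measured on single-colour arrays. The deposited values are log2 probe set levels that the authors computed with RMA, a method that summarises each probe set over its probes, as the submitters' processing notes say. Neither the version of RMA nor joint or separate processing of the arrays is given in the sources used here. Per the labels' protocols, RNA was isolated on RNeasy columns and labelled with biotin after oligo dT priming. Of 15923 rows 57 array controls were left out, and 15866 probe sets were tested with no filter. Of these, 12783 had 1 annotated symbol, 312 several and 2771 none. For the 176 chosen probe sets, 175 were found by gene identifier in RefSeq's gene table (GRCr8), all under the same symbol. The number of arrays limits the precision, and no detection calls were used.

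Each of 14 comparisons was tested two-sided with limma 3.58.1 (R 4.3.3; eBayes with an intensity trend), with Benjamini-Hochberg adjustment over the 15866 probe sets. Comparisons of tissues or days used the arrays of the strata compared, with treatment as a block (3 or 4 residual degrees of freedom). Treatment comparisons used all 22 arrays with stratum as a block (14, or 11 where maternal liver and conceptus had effects of their own). Named genes were the 12 most changed called ones per direction, or the 5 with the smallest p where fewer than 5 were called, with all RT1- genes and a short list of markers (Cd163, Cd79a and Cd34 of it had no chosen probe set). Others are named to describe their role group. The genes were taken by symbol alone, but that rule, the roles and the lists were set with earlier results of these data known. Alternatives were another normalization, a filter on dim probe sets, array weights, no trend, no block, all probe sets, and arrays or strata left out. The fit was tested on simulated data.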

Additional observations from a re-analysis of the deposited data

Results flagged for a closer look

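Dixon's test at the 95% level was applied within each stratum, and single cases are listed for 25 genes chosen for display. In 6 cases among these genes 1 array stood far from the others of its stratum. These strata mix treatments, and chance flags about 1 in 20 groups. In embryo liver of day 20, the retinoic acid array was high for Cd59b (9.20, against 8.36 to 8.49 in the other 3) and for Il18 (11.27, against 10.26 to 10.38), and the EMD150 array was low for Cd9 (10.05, against 10.48 to 10.55). In whole embryo of day 12, the control was high for Il6r (6.46, against 6.20 to 6.26), the first retinoic acid array was high for RT1-S3 (7.62, against 7.08 to 7.23), and the second was low for Cxcr4 (9.60, against 9.96 to 10.09). Over all 140 genes, 10 were flagged in bone, 9 in embryo liver, 3 and 7 in maternal liver of days 20 and 12, and 8 in whole embryo, or 2.14% to 7.14% per stratum.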

How the results depend on the processing

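Counts of called genes among the 140 moved by over 1.5 times in these cases. For bone against embryo liver (69), 34 were called after a filter on dim probe sets, 106 with array weights, 32 without the 4 arrays picked from earlier results and 18 without the control and retinoic acid bones. For bone against whole embryo (36) the last gave 21, and for embryo liver against whole embryo (115) the dim filter gave 51, with fewer genes tested. For the maternal days (7), counting all probe sets gave 11, array weights 13, leaving out the 4 arrays 20 and leaving out the 3 livers with acinar genes 0 (18 with an unadjusted p under 0.05). For retinoic acid against control (1), all probe sets gave 2, the dim filter 3 and array weights 4, and quantile normalization, leaving out the 4 arrays, the 2 bones, the 3 livers, or the bone, embryo liver, day 20 maternal liver or whole embryo stratum gave 0 (7 to 19 with an unadjusted p under 0.05). In the conceptus (1), all probe sets gave 2 and array weights 5, and median centring, leaving out the 2 bones, or any stratum but the day 20 maternal liver gave 0 (6 to 25). For EMD150 against retinoic acid (24), quantile normalization gave 15, the dim filter 10, leaving out the 4 arrays 0, the 2 bones 8 and the 3 livers 12, and leaving out the bone, embryo liver, day 20 or day 12 maternal liver stratum gave 4, 0, 2 and 13. With 1 array left out the counts ran from 46 to 78 for bone against embryo liver, 45 to 55 for embryo against maternal liver, 29 to 45 and 88 to 125 for bone and embryo liver against whole embryo, 1 to 20 for the maternal days, 0 to 2 for retinoic acid, 0 to 1 in the conceptus and 4 to 42 for EMD150 against retinoic acid. The cause of these moves was not tested. Some of the settings test fewer genes or use fewer arrays.

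Of 1989 values of named genes under settings other than 1 array left out, 1786 kept their direction and call, 189 lost and 10 gained the call, and 4 small uncalled ones changed sign: EMD50 minus control for Cd82 with array weights (0.0252) and RT1-Bb without the 3 livers (0.0285), and retinoic acid in maternal liver without day 12 for RT1-S3 (-0.0032) and Ccl5 (-0.1735). Of 2980 values with 1 array left out, 199 lost and 2 gained the call and none changed sign. Pairing by replicate number was not possible, since such numbers occur only in the retinoic acid groups of day 12. The groups compared share fewer than 2 numbers. Treatment, not a replicate number, was the block in the comparisons of tissues and days, and leaving it out is among the alternatives. The array gives no detection call here, so a lower limit of detection for dim genes was not set. The livers and bones with RNA of other tissue, and 1 array per treatment and stratum, limit what the treatment comparisons can resolve.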

Other observations

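Blood cell genes outside the chosen families also set embryo liver apart. Megakaryocyte and platelet genes (5 of 9 listed) averaged 8.48 to 8.81 in embryo liver and 7.50 to 7.95 in bone. Mast cell and eosinophil genes (8 of 10 listed) averaged 8.43 to 8.49 in embryo liver, 7.24 to 7.46 in bone and 6.69 to 7.03 in whole embryo. Blood stem and progenitor genes (5 of 9 listed) averaged 8.0 to 8.18 in embryo liver, 7.19 to 7.41 in bone and 7.59 to 7.77 in maternal liver. NK and cytotoxic genes (7 of 10 listed) varied less, from 6.84 in whole embryo to 7.70 in embryo liver.

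Of the 26 genes with several probe sets, 4 pairs of probe sets were called in opposite directions in some comparison, and in 51 pairs 1 of the probe sets alone was called. Cd248 had opposite calls between bone and embryo liver and between embryo liver and whole embryo. In the latter its brighter probe set differed by 0.75 and the other by -1.24. Between embryo and maternal liver the brighter one was not called (0.08) and the other was called higher (0.39).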
